A study of Mus musculus with 10 samples.

Results

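The samples described here are the 6 of the 10 in the series that follow barcoded MLL-AF9 leukaemia clones from their baseline into recipients labelled PTPRCA. They comprise the baseline cells of donor mouse 1 and donor mouse 2 and, for each donor, the bone marrow and the spleen of PTPRCA recipients sampled at the timepoint called disease. All clones with at least 100 CPM (a clone's reads after scaling every sample to 1000000) in 1 or more of these 6 samples were included, which gave 2864 of the 19704 listed barcodes and of the 10819 with reads in these samples. The clones nearest this threshold were BFP_Barcode_146790, included at 100.02 CPM, and BFP_Barcode_36833, left out at 99.96 CPM.

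The cells had been c-Kit-positive haematopoietic progenitors grown with IL-3, IL-6 and SCF and marked with the SPLINTR libraries, whose barcode names carry the reporter colours BFP, GFP and mCHERRY. MLL-AF9 is an oncogenic fusion of the genes Kmt2a and Mllt3. Ptprca mice differ from the common laboratory strain in an allele of the CD45 gene, which lets donor and host blood cells be told apart, and they keep a working immune system. The 4 remaining samples came from NSG recipients, a strain without T cells, B cells or natural killer cells. The sources used here do not state the tissue and strain of the baseline cells, the ages of the mice, the cell dose or how many recipients stand behind a sample.

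A heritable barcode marks a cell and all of its descendants, so that the share of reads with that barcode measures the size of the clone within the sample. Transplantation passes a leukaemia through a bottleneck, and clones then differ in engraftment, in self-renewal and, in a host with an immune system, in how they meet immune cells. Shares sum to a fixed total, so that in these data a clone with fewer cells cannot be told apart from a clone outgrown by others.

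Each of the 6 samples was the mean of 2 libraries and rested on 5634747 to 7018103 reads. A count of 3 reads, the upper limit that a count of 0 allows, corresponded to 0.427 to 0.532 CPM. The widest 95% Wilson interval for a share of reads was 0.0413 percentage points on either side. These limits cover counting error only, since amplified reads that carry no molecular identifier need not stem from separate molecules.

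The spleen of donor 1 stood apart from the other 5 samples. Its libraries differed from each other, with 37.8% of clones of 100 to 1000 CPM within 2-fold between them, against 97.5% to 100% in the other 5 samples. Over 390 clones, r on the log2(CPM + 10) scale was 0.54 between these 2 libraries, against 0.98 over 407 clones in the spleen of donor 2. The library of 3635869 reads correlated with the marrow of donor 1 at r = 0.51 and that of 2833979 reads at r = 0.054, against r = 0.38 for each spleen library of donor 2 with its marrow. The points share depth and marrow values and are given without a test. For donor 1 the main fate counts, library shares, baseline levels, ranks and clone numbers are therefore given with its marrow alone as well. Other donor 1 values use both tissues or name the tissue. In the baseline of donor 2, the library of 2721267 reads held 335 barcodes that were absent from its second library and from the other donor 2 samples but reached 100 CPM in donor 1. They made up 0.414% of that library. The other 11 libraries held 0 to 4 such barcodes each. None of the 335 exceeded 71.5 CPM in the sample, so none counted as abundant at that baseline.

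**Figure D1:**
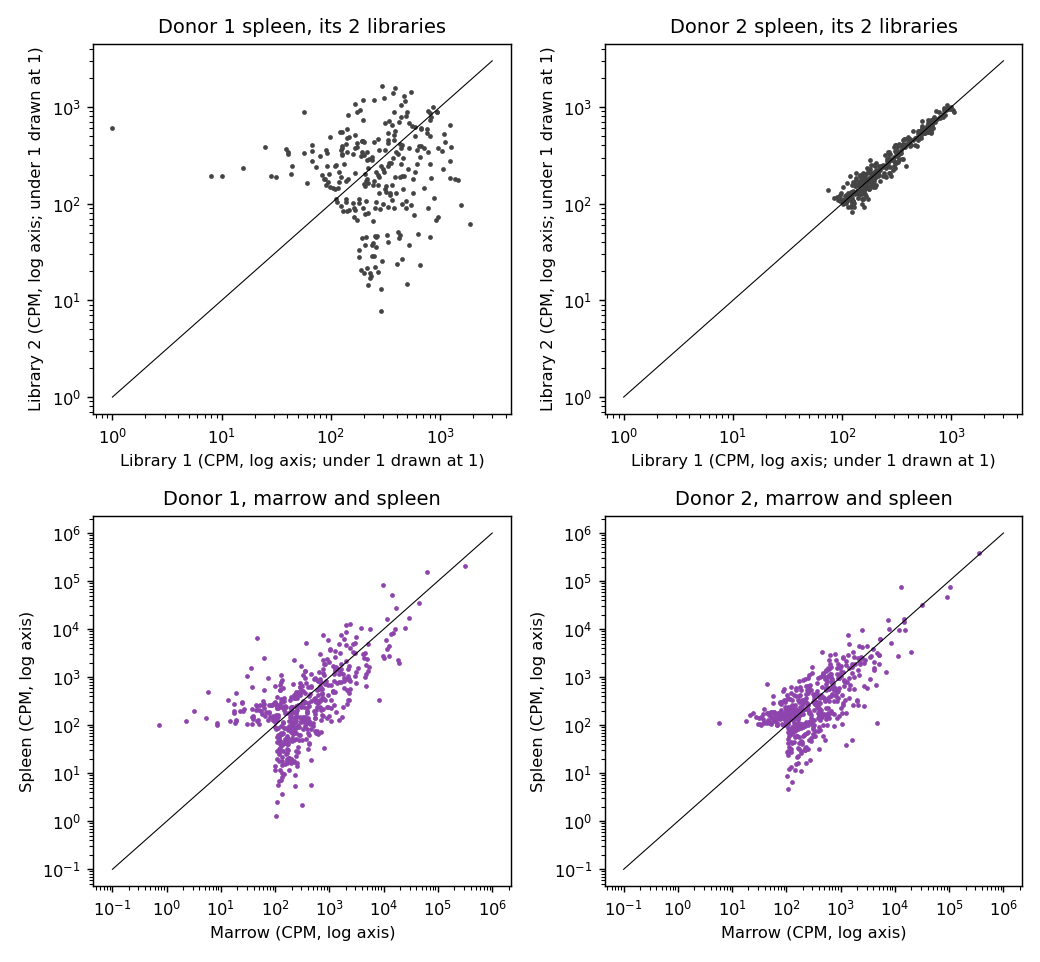
Upper panels plot the CPM of a clone in the 2 libraries of the PTPRCA spleen samples (clones of 100 to 1000 CPM whose reads could be assigned to libraries), and lower panels plot marrow against spleen CPM for clones at 100 CPM or more in either tissue, all on log axes with the line of equality. Points scatter widely between the spleen libraries of donor 1 (37.8% within 2-fold) and lie on the line in donor 2 (100% within 2-fold).

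Most members belonged to 1 donor. Of the 2864 clones, 1408 reached 100 CPM in donor 1, 1468 in donor 2 and 12 in both, 9 of these 12 from the GFP library and 3 from the BFP library. Over the members, 1890 reached the threshold at baseline only, 489 at baseline and in PTPRCA tissue, and 485 in PTPRCA tissue only. These counts follow from the threshold itself and carry no test.

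The fates of abundant baseline clones were read within each donor, from the baseline to the mean of marrow and spleen. A clone of at least 100 CPM at baseline was called expanded at 4 times its baseline or more, persisting when it lay less than 4-fold above or below its baseline, reduced at 4-fold below or lower, and lost when it was below 1 CPM in both tissues. Such clones are chosen by a high baseline value, which by itself favours lower values on a second measurement. With 1 baseline per donor these classes are descriptions with no test.

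Few clones expanded and many were lost, in similar proportions in both donors. In donor 1, 64 of 1132 baseline clones expanded (5.65%), 150 persisted (13.3%), 372 were reduced (32.9%) and 546 were lost (48.2%). In donor 2, 68 of 1257 expanded (5.41%), 203 persisted (16.1%), 451 were reduced (35.9%) and 535 were lost (42.6%). With marrow alone, donor 1 had 60 expanded, 143 persisting, 360 reduced and 569 lost clones. Over the donors the expanded share was 5.53% ± 0.173 (SD, n = 2) and the lost share 45.4% ± 4.01 (SD, n = 2). The median ratio of disease to baseline was 0.0024 in donor 1 and 0.0035 in donor 2, and 123 and 160 clones stood above their baseline. With marrow alone the median ratio of donor 1 was 0.0034, and 123 clones were above their baseline. The NSG recipients share these baseline samples. In them 79, 105, 403 and 545 clones of donor 1 and 99, 176, 439 and 543 of donor 2 were expanded, persisting, reduced and lost.

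**Figure D2:**
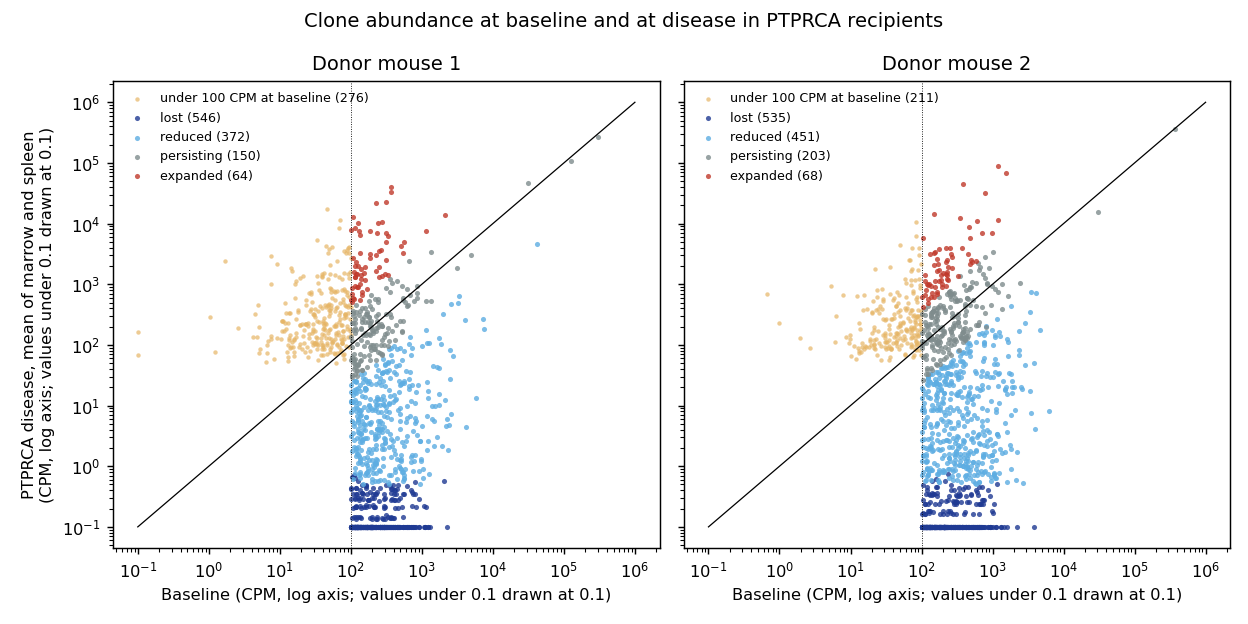
Each point is a clone, placed by its CPM at baseline and by its mean CPM in PTPRCA marrow and spleen of the same donor, on log axes with values under 0.1 drawn at 0.1. Colours give the class, with the number of clones in the legend, the dotted line marks 100 CPM at baseline and the solid line equality. In both donors most clones right of the dotted line lie below equality, and 546 and 535 lie at the bottom as lost.

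The expanded class held on average 32.6% of disease reads in donor 1 and 41.3% in donor 2, while the reduced and lost classes, large at baseline, held little. The direction of these changes follows from the definition of the classes, and only their size is read here. In donor 1 the 64 expanded clones held 1.56% of reads at baseline, 33.3% in marrow and 31.9% in spleen. In donor 2 the 68 expanded clones held 2.06% at baseline, 43.8% in marrow and 38.8% in spleen. The reduced clones together held 24.3% at baseline, 0.928% in marrow and 1.56% in spleen of donor 1, and 27.2%, 1.17% and 1.09% in donor 2. The lost clones had held 14.4% of the baseline reads in donor 1 and 15.6% in donor 2. The persisting class held 50.1%, 43.9% and 49.7% in donor 1 and 46.5%, 44.3% and 47.98% in donor 2, with GFP_Barcode_52804 as its largest clone. That clone held 42.4% of the class in the spleen of donor 1 and 59.4% to 81.5% in the other 5 samples. Without it the persisting class held 20.4% at baseline and 20.2% at disease in donor 1, and 9.75% and 9.21% in donor 2.

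**Figure D3:**
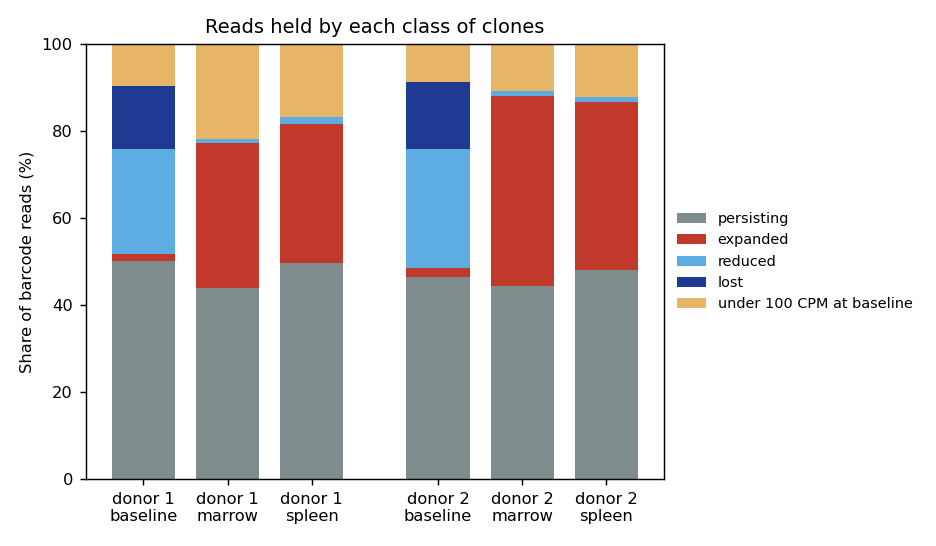
Stacked bars give the percentage of barcode reads held by persisting, expanded, reduced and lost clones and by clones under 100 CPM at baseline, for the baseline, PTPRCA marrow and PTPRCA spleen of each donor. The expanded class takes up 1.56%, 33.3% and 31.9% in donor 1 and 2.06%, 43.8% and 38.8% in donor 2. The classes are defined from these same samples.

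Among expanded clones, both tissues lay above the baseline in nearly all cases. In donor 1, 63 of 64 expanded clones exceeded their baseline in marrow and in spleen, and 47 did so by at least 4-fold in each tissue. In donor 2 the numbers were 66 and 47 of 68. Both tissues of a donor are set against the same baseline sample here. Their mean also defined the class, so that at least 1 tissue lay above baseline by definition. The counts are therefore no independent agreement between tissues. The median ratio was 11.8 in donor 1 and 7.71 in donor 2. A few clones carried the class, since the 5 largest held 40.5% of its disease reads in donor 1 and 60.3% in donor 2.

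Among clones with 100 CPM or more at baseline, the largest ratios of disease to baseline were between 100 and 120. In donor 1, mCHERRY_2_Barcode_654114 stood at 108 CPM at baseline, 15806 CPM in marrow and 9939 CPM in spleen, a ratio of 119 for the mean. The largest expanded clone of that donor, mCHERRY_2_Barcode_8041, stood at 371, 44897 and 35493 CPM in the same order, a ratio of 108. In donor 2, BFP_Barcode_97773 stood at 383 CPM at baseline, 13163 CPM in marrow and 75378 CPM in spleen, a ratio of 116, and was 1 of only 5 expanded BFP clones there. Its tissues were unequal, whereas mCHERRY_2_Barcode_599236 was even between them, with 148 CPM at baseline, 14468 CPM in marrow and 14201 CPM in spleen. In the same donor mCHERRY_2_Barcode_593860 stood at 104, 5336 and 6239 CPM, a ratio of 55.8.

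Other leading clones of donor 1 were less even between tissues. The clone mCHERRY_2_Barcode_162583 stood at 370 CPM at baseline, 14504 CPM in marrow and 51414 CPM in spleen. By contrast mCHERRY_2_Barcode_25922 stood at 126, 18421 and 2241 CPM, with marrow the higher tissue. Also in donor 1, mCHERRY_2_Barcode_163752 stood at 225, 16666 and 27232 CPM. All of them were above baseline in both tissues, and the order of the tissues differed between them. The spleen values are of the sample with discordant libraries (37.8% of clones within 2-fold). At more than 1000 CPM they were not split between libraries, so how far each clone agreed there is not known.

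After GFP_Barcode_52804, the largest clones of donor 2 by disease mean were mCHERRY_2_Barcode_187286 and mCHERRY_2_Barcode_311488, followed by BFP_Barcode_97773 and mCHERRY_2_Barcode_96127, all of them expanded. Marrow held mCHERRY_2_Barcode_187286 at 101638 CPM and spleen at 76451 CPM, from 1195 CPM at baseline, a ratio of 74.5. The corresponding values of mCHERRY_2_Barcode_311488 were 90928, 47255 and 1554 CPM, a ratio of 44.5. For mCHERRY_2_Barcode_96127 marrow and spleen were nearly equal, at 31680 and 32338 CPM, from 772 CPM. These mCHERRY clones thus began above the median of 195 CPM of the expanded clones of their donor.

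Persistence was shown most clearly by GFP_Barcode_52804, the largest clone of all 6 samples. In donor 1 it stood at 29.8% of reads at baseline, 32.1% in marrow and 21.1% in spleen, and in donor 2 at 36.7%, 34.8% and 39.1%. The tissues lay on either side of the baseline in both donors, so that no direction held over the 4 disease samples. GFP_Barcode_52357, the second of the persisting clones by size, stood at 12.6%, 6.35% and 15.4% in donor 1 and at 3.10%, 1.47% and 1.66% in donor 2. In donor 1, GFP_Barcode_98919 stood at 3.07% at baseline, 0.965% in marrow and 8.23% in spleen, below its baseline in 1 tissue and above it in the other, within 4-fold in each.

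By baseline level, the next persisting clones of donor 1 were also GFP clones. GFP_Barcode_102213 stood at 4960 CPM at baseline, 2897 CPM in marrow and 3159 CPM in spleen, and GFP_Barcode_22403 at 3123, 659 and 3008 CPM. In marrow alone GFP_Barcode_22403 lay more than 4-fold below its baseline, and 6 in place of 7 of the 21 GFP clones of donor 1 persisted. In donor 2 they were mCHERRY clones. There mCHERRY_2_Barcode_718234 stood at 1376, 1158 and 856 CPM, mCHERRY_2_Barcode_412357 at 1672, 683 and 585 CPM, and mCHERRY_2_Barcode_377112 at 2467, 572 and 1562 CPM. Each of these clones, named for a high baseline, was below it in both tissues. Over the whole persisting class, 34 of 150 clones in donor 1 and 61 of 203 in donor 2 were above their baseline in both tissues, and 68 and 85 were below it in both.

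Loss reached clones that had ranked among the larger ones at baseline. The largest lost clone of donor 1, mCHERRY_2_Barcode_245613, had 2285 CPM at baseline and was listed at 0 in marrow and spleen, at least 5129-fold lower when set against 3 reads per sample. In donor 2, BFP_Barcode_95006 had 3828 CPM at baseline and was listed at 0 in both tissues, at least 7310-fold lower by the same limit. Of the lost clones, 399 of 546 in donor 1 and 390 of 535 in donor 2 were listed at 0 in both tissues. Lost clones with 1000 CPM or more at baseline numbered 11 in donor 1 and 12 in donor 2. The next in size were mCHERRY_2_Barcode_287228, mCHERRY_2_Barcode_119490, mCHERRY_2_Barcode_421266 and mCHERRY_2_Barcode_900153 in donor 1, at 2071, 1307, 1226 and 1210 CPM. In donor 2 they were mCHERRY_2_Barcode_50379, BFP_Barcode_262411, BFP_Barcode_236851 and BFP_Barcode_200014, at 2175, 1580, 1453 and 1335 CPM.

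Baseline values of lost clones agreed between libraries in most cases. Reads could be assigned to libraries for 500 lost clones of donor 1, all of which lay within 2-fold between the 2 baseline libraries and had at least 230 reads in each. In donor 2 this held for 488 of 506 clones, with at least 99 reads in each library. By the definition of the class, a lost clone was more than 100-fold below its baseline.

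Reduced clones spanned the range between these extremes. The most abundant of them at baseline, GFP_Barcode_69276 in donor 1, stood at 42374 CPM at baseline, 1604 CPM in marrow and 7461 CPM in spleen. Next, mCHERRY_2_Barcode_552621 of donor 1 stood at 7555, 218 and 143 CPM. In donor 2 the most abundant reduced clone, mCHERRY_2_Barcode_1134094, stood at 6193 CPM at baseline, 15.9 CPM in marrow and 0.362 CPM in spleen, 762-fold lower by the mean. Less reduced were mCHERRY_2_Barcode_927520 at 4596, 161 and 196 CPM and BFP_Barcode_2119 at 4089, 524 and 922 CPM. The lowest ratios among reduced clones were of clones near the limit for loss, such as GFP_Barcode_27920 of donor 2, at 2707 CPM at baseline, 1.06 CPM in marrow and 0 in spleen. In donor 1 mCHERRY_2_Barcode_767523 was alike, at 939, 1.00 and 0 CPM.

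The barcode libraries differed in fate. Of BFP clones abundant at baseline, 409 of 580 in donor 1 and 434 of 686 in donor 2 were lost, which is 70.5% and 63.3% against 48.2% and 42.6% of all abundant baseline clones. Of mCHERRY clones, 134 of 531 and 96 of 552 were lost, 25.2% and 17.4%. The order was turned for expansion, with 6 and 5 BFP clones (1.03% and 0.729%) and 58 and 63 mCHERRY clones (10.9% and 11.4%). No GFP clone expanded among the 21 and 19 abundant at baseline, of which 7 and 3 persisted, 11 and 11 were reduced and 3 and 5 were lost. Their median baseline was higher, at 1884 and 582 CPM, against 179 to 268 CPM for BFP and mCHERRY. Over all clones of 1000 CPM or more at baseline, 2.99% and 3.06% expanded. Numbers this small cannot tell whether GFP clones expand less often than others of their level. With marrow alone in donor 1, 73.1% of BFP and 26.7% of mCHERRY clones were lost.

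The difference between BFP and mCHERRY clones was seen at each baseline level. Among clones of 100 to 200 CPM at baseline, 74.9% of 331 BFP and 24.5% of 220 mCHERRY clones were lost in donor 1, and 70.4% of 311 and 23.2% of 198 in donor 2. Among clones of 500 to 1000 CPM the lost shares were 50.0% of 52 BFP and 18.6% of 59 mCHERRY clones in donor 1, and 53.7% of 95 and 13.6% of 81 in donor 2. Loss has a fixed limit of 1 CPM, so that a clone of higher baseline needs a larger drop to reach it. Over all clones the lost share was lower at higher baseline levels, from 54.8% at 100 to 200 CPM to 16.4% at 1000 CPM or more in donor 1 and from 52.1% to 12.2% in donor 2. The mix of libraries also changed, with BFP at 331 of 551 clones at the lowest level and 12 of 67 at the highest in donor 1. In donor 2 BFP made up 311 of 509 and 35 of 98. How much of the fall this accounts for was not tested. Within BFP the lost share ran from 74.9% to 33.3% and from 70.4% to 31.4%. Within mCHERRY it ran from 24.5% over 29.4% at 200 to 500 CPM to 17.1% in donor 1 and from 23.2% to 1.82% in donor 2. Over all clones the reduced share ran from 23.8% to 68.7% and from 24.4% to 75.5%. Reduced and lost clones together, which do not depend on that limit, ran from 78.6% to 85.1% in donor 1 and from 76.4% to 87.8% in donor 2. Within mCHERRY this run was steeper, from 59.1% to 90.2% in donor 1 and from 54.0% to 81.8% in donor 2. Within BFP it was from 91.5% to 100% and from 90.7% to 100%. At 100 to 200 CPM, 91.5% of BFP and 59.1% of mCHERRY clones in donor 1 and 90.7% and 54.0% in donor 2 were reduced or lost. With marrow alone in donor 1 these shares were 92.7% and 60.5%, and over all clones they ran from 79.9% to 88.1%. At 1000 CPM or more the libraries lay closer. There 100% of 12 BFP and 90.2% of 41 mCHERRY clones in donor 1 were reduced or lost, and 100% of 35 and 81.8% of 55 in donor 2. With marrow alone in donor 1 the mCHERRY share at that level was 92.7%. Over all clones the expanded share ran from 7.08% to 2.99% in donor 1 and from 6.88% to 3.06% in donor 2. Persistence ran from 14.3% to 11.9% and from 16.7% to 9.18%. These shares describe clones of 2 donors, and clones of a donor are not replicates.

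**Figure D4:**
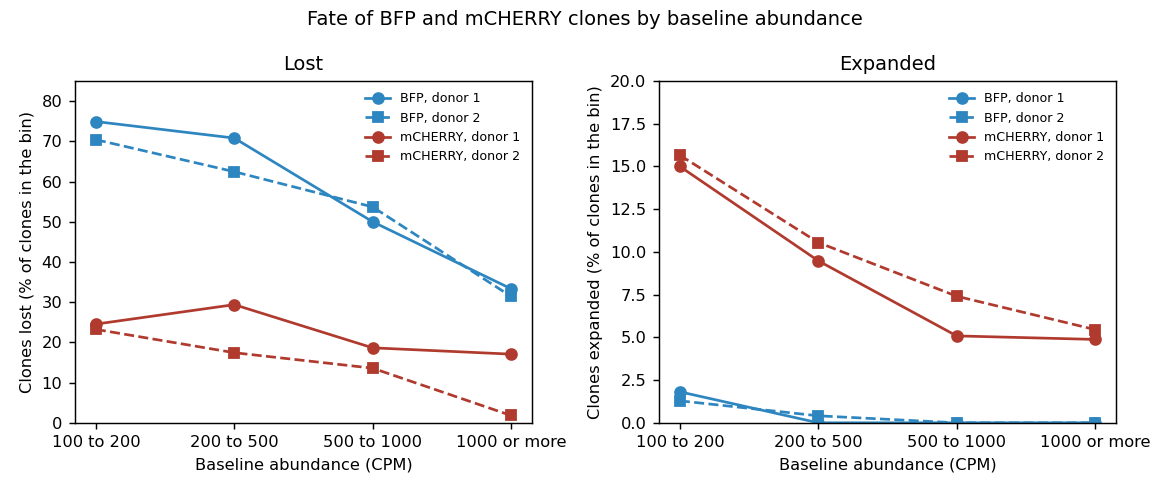
Lines give the percentage of abundant baseline clones that were lost (left) or expanded (right) in 4 bins of baseline abundance in CPM, for BFP and mCHERRY clones of donor 1 (circles, solid) and donor 2 (squares, dashed). In every bin BFP clones were lost more often and expanded less often than mCHERRY clones of the same donor, for example 74.9% against 24.5% lost at 100 to 200 CPM in donor 1. The highest bin holds as few as 12 BFP clones (donor 1).

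The share of reads per library also differed between baseline and disease. The mean log2 ratio of disease to baseline was -1.80 for BFP, -0.20 for GFP and 0.94 for mCHERRY, with donor values of -1.73 and -1.87, -0.29 and -0.10, and 1.03 and 0.84. Both donors had the same sign for each library. A two-sided exact permutation test that exchanges baseline and disease within 2 donors cannot go below p = 0.5, which was the value for each library (adjusted p = 0.5 over the 3 tests). Without GFP_Barcode_52804 the GFP value was -1.06. With marrow alone the values of donor 1 were -1.64 for BFP, -0.39 for GFP and 1.10 for mCHERRY.

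Clones below 100 CPM at baseline supplied a smaller part of the disease reads. They held 9.64% and 8.62% of baseline reads at 1 to 100 CPM in donors 1 and 2, and these same clones held 21.8% of marrow and 16.7% of spleen in donor 1 and 10.4% and 11.8% in donor 2. The 1 to 100 CPM level held 3713 clones in donor 1 and 3049 in donor 2, of which 226 and 168 reached a disease mean of 100 CPM. In donor 2, 287 of these 3049 were among the barcodes found in 1 baseline library and otherwise in donor 1. Clones below 1 CPM at baseline held 0.0743% of disease reads in donor 1 and 0.354% in donor 2. A disease mean of 1% of reads was reached by 14 clones in donor 1 and 11 in donor 2, of which 2 and 1 had been at 1 to 100 CPM and 0 below 1 CPM. With marrow alone in donor 1, 231 clones of the 1 to 100 CPM level reached 100 CPM. A share of 1% was reached there by 18 clones, 3 of them from that level.

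A small group of clones at the edge of detection at baseline was well above it at disease. In donor 2, GFP_Barcode_44375 had 4 reads at baseline (0.658 CPM), all in 1 library, and stood at 797 CPM in marrow and 589 CPM in spleen. The ratio was 1052, with a 95% interval of 411 to 3862 from the exact Poisson error of the baseline reads alone. GFP_Barcode_13746 of the same donor had 6 baseline reads (0.987 CPM), 247 CPM in marrow and 206 CPM in spleen, a ratio of 229 (105 to 625 by the same interval). Both clones had libraries in close agreement at disease, at 784 and 810 CPM in marrow for the first and 232 and 261 CPM for the second. The next clones of donor 2 were listed at 0 at baseline, namely BFP_Barcode_23654 with 81.2 and 44.4 CPM in marrow and spleen, BFP_Barcode_345036 with 56.6 and 54.6 CPM, and mCHERRY_2_Barcode_131202 with 70.1 and 41.8 CPM. Against 3 reads at baseline these 3 were at least 121-fold, 107-fold and 107-fold higher.

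In donor 1 the highest clone of this kind was not measured evenly. GFP_Barcode_18532 was listed at 0 at baseline and stood at 24.3 CPM in marrow and 305 CPM in spleen, where 1 library held 610 CPM and the second 0. BFP_Barcode_519500, also at 0 at baseline, stood at 119 CPM in marrow and 17.9 CPM in spleen, at least 132-fold higher by the mean. BFP_Barcode_369896 rested on 1 baseline read and stood at 62.3 and 9.44 CPM. Lower still were mCHERRY_2_Barcode_856408 at 42.8 and 17.5 CPM and mCHERRY_2_Barcode_313640 at 41.5 and 9.86 CPM.

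The largest clone, GFP_Barcode_52804, was the same at baseline and disease in both donors, but most of the clones ranked after it differed. Of the 10 largest clones at baseline, 3 in donor 1 and 2 in donor 2 were among the 10 largest at disease. Of the 50 largest clones at baseline, 7 in donor 1 and 3 in donor 2 were among the 50 largest at disease. The median baseline rank of the 50 largest disease clones was 627 in donor 1 and 573 in donor 2. With marrow alone in donor 1, 2 of the 10 and 6 of the 50 largest were in common, and the median baseline rank was 889. Clones of at least 1000 CPM numbered 67 at baseline and 103 at disease in donor 1, with 9 in common, and 98 and 88 in donor 2, with 8 in common. Those in common were 7 GFP and 2 mCHERRY clones in donor 1 and 2 GFP and 6 mCHERRY clones in donor 2. With marrow alone, donor 1 had 101 clones of at least 1000 CPM at disease, 8 of them in common with its baseline. In donor 1, 1099 clones made up 90% of reads at baseline, 130 in marrow and 105 in spleen, and in donor 2 the numbers were 1131, 129 and 114. The number needed for 50% of reads was 5, 6 and 5 in donor 1, where it did not fall, and 42, 3 and 3 in donor 2. Without GFP_Barcode_52804 it fell in both donors, with 92, 17 and 8 in donor 1 and 259, 11 and 10 in donor 2. Clones at or above 100 CPM were fewer at disease, by a mean log2 ratio of -1.58, with donor values of -1.55 and -1.61, and -1.43 for donor 1 with marrow alone (exact permutation p = 0.5, the smallest possible). The effective number of clones (exponential of the Shannon entropy) differed by -1.90 on the same scale, with donor values of -1.43 and -2.36, and -1.39 for donor 1 with marrow alone (exact permutation p = 0.5). It differed by -2.97 without GFP_Barcode_52804, whereas the inverse Simpson number differed by -0.015 (exact permutation p = 1), with donor values of 0.16 and -0.19.

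Marrow and spleen held largely the same clones at differing levels. In donor 1, 484 clones reached 100 CPM in either tissue and 291 in both, and 1 of the 484 was below 1 CPM in the other tissue. In donor 2 the numbers were 495, 329 and 0. Spleen and marrow lay within 4-fold for 67.4% of these clones in donor 1 and 81.2% in donor 2, and within 2-fold for 33.7% and 48.3%. The SD of the log2 ratio between tissues was 2.12 in donor 1 and 1.55 in donor 2. Between the libraries of the donor 1 spleen the SD was 1.95, over clones of 100 to 1000 CPM. How much of the difference between its tissues this accounts for was not tested. Across clones r between tissues was 0.65 and 0.74 on the log2(CPM + 10) scale, given as a description.

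Barcodes abundant in both baselines allowed fates to be set side by side in cells of 2 donors. There were 10, of which 7 were GFP and 3 BFP, and 8 had the same class in both donors. Whether a barcode marks the same clone in both donors was not tested. GFP_Barcode_113643 stood at 7288, 187 and 340 CPM at baseline, in marrow and in spleen of donor 1 and at 2377, 55.8 and 79.7 CPM in donor 2, 27.6-fold and 35.1-fold lower by the mean. GFP_Barcode_38818 stood at 1233, 29.1 and 6.03 CPM and at 464, 11.1 and 20.4 CPM. The 4 disease samples lay below the baselines for both barcodes. The fold reduction was smaller for GFP_Barcode_7083, at 4085, 143 and 370 CPM and at 366, 88.1 and 57.9 CPM, and for GFP_Barcode_69276, which stood at 3454, 1043 and 428 CPM in donor 2. Of the BFP barcodes, BFP_Barcode_139027 was listed at 0 in all 4 disease samples, from 241 and 349 CPM, and BFP_Barcode_27084 likewise, from 138 and 102 CPM.

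For the other two of these barcodes the donors parted. GFP_Barcode_98919, persisting in donor 1, was reduced in donor 2 from 1383 CPM to 22.9 CPM in marrow and 27.0 CPM in spleen. BFP_Barcode_213231 was lost in donor 1, from 121 CPM to 0 in both tissues, and stood at 159, 78.1 and 17.8 CPM in donor 2.

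**Figure D5:**
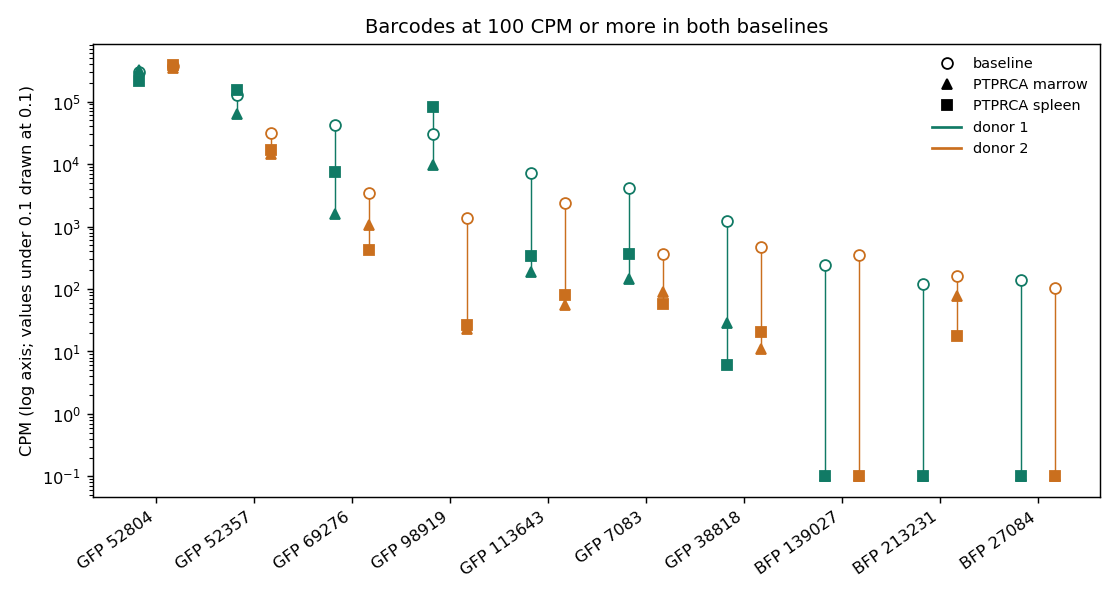
Markers give the CPM (log axis, values under 0.1 drawn at 0.1) at baseline (open circle), in PTPRCA marrow (triangle) and in PTPRCA spleen (square) for the 10 barcodes abundant in both baselines, donor 1 left and donor 2 right of each position. The largest, GFP_Barcode_52804, stays near its baseline in both donors, while GFP_Barcode_113643 and GFP_Barcode_38818 lie below it in all 4 disease samples.

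No clone passed the test over both donors. limma on log2(CPM + 10), with marrow and spleen averaged per donor, gave 0 calls among 2864 clones (0%), and 0 clones had an unadjusted p below 0.05. With the donor as a block it also gave 0 calls among 2864 (0%), and 33 clones had an unadjusted p below 0.05. Only 12 of the 2864 clones reached 100 CPM in both donors. A clone listed at 0 in all samples of 1 donor has a log2 difference of 0 there and cannot share a sign. The SD of the difference between the log2 ratios of the donors was 3.98, and 112 clones had the same sign in both. With most barcodes abundant in 1 donor only, these values and the 0 calls cannot tell whether clone fates differ between donors. The highest mean differences of 1 sign in both donors were those of mCHERRY_2_Barcode_428625 (log2 3.18 ± 4.65 SE, adjusted p = 0.873 by limma), GFP_Barcode_44375 (3.04 ± 2.58 SE) and GFP_Barcode_3138 (2.46 ± 5.99 SE). For the first pair the log2 differences were 6.21 and 6.04 in donor 2 and only 0.15 and 0.030 in donor 1. In donor 1, mCHERRY_2_Barcode_428625 was found in 1 spleen library alone, at 4.23 CPM, and it is the 1 barcode of that library otherwise seen in donor 2, a circumstance whose part in the shared sign was not tested. GFP_Barcode_3138 stood higher at disease in both donors, at 1339, 4324 and 2557 CPM at baseline, in marrow and in spleen of donor 1 and at 1.96, 166 and 96.4 CPM in donor 2. The lowest were BFP_Barcode_139027 (-4.91 ± 3.26 SE, adjusted p = 0.769 by limma), GFP_Barcode_38818 (-4.85 ± 4.46 SE) and GFP_Barcode_113643 (-4.84 ± 6.15 SE). These SEs are of the fit without the donor block and include the difference in level between donors. With the block they were 1.63, 2.06 and 1.42 for the highest and 1.90, 1.66 and 1.39 for the lowest, in the order named. Each of these clones had adjusted p = 0.656 by limma with the block.

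The limma result depended on how donors and tissues entered. With marrow and spleen as separate samples and the donor block it called 4 of 2864 clones, 1 higher and 3 lower, GFP_Barcode_113643 with adjusted p = 4.78e-04 by limma. Fits without donor 1 or without donor 2 keep 1 baseline sample, so their calls are not counted here. Those fits compare samples of 1 donor, count marrow and spleen as separate samples and assume that the lone baseline varies like the other groups. Over the 8 fits with a donor block, the adjusted p of GFP_Barcode_113643 ran from 4.78e-04 to 0.703.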

How the data were processed

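DNA barcodes were amplified from viable sorted cells. Per the labels' protocols, lysates were divided into technical replicates and taken through 2 rounds of PCR. The submitters' processing notes name Bowtie 1.2.2 and R 3.6, while the barcode reference and filters are not stated there. Values were deposited as CPM, scaled by the authors to 1000000 per column. Columns were matched to samples by donor, strain and tissue, and 0 columns belonged to other samples.

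Low values were sums of whole multiples of 2 steps, which gave the reads of 2 libraries per sample (largest distance from a whole number 0.0139). Values up to 1000 CPM were split between the libraries where 1 solution existed (99.0% to 99.9% of values). No single step gave whole reads, so no count model was run.

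Clones were tested with limma 3.58.1 in R 4.3.3 (lmFit, eBayes with a trend) on log2(CPM + 10), which understates changes of rare clones, with 1 mean per condition over 6 values (baseline, PTPRCA and NSG of 2 donors, tissues averaged) and Benjamini-Hochberg adjustment at 0.05. Other values came from Python 3.11.15, numpy 2.4.6 and pandas 2.3.3. Both the limma step and the splitting were tested on simulated data. The limma simulation gave every clone the same level in both donors and the changed clones an equal change, unlike these data. It checks the computation only and not what limma could detect here. Same-numbered samples share a donor mouse, per the labels, and deviations of baseline and PTPRCA values correlated at 0.514. Where nothing says that recipients were separate, p-values measure the spread between these samples. Clones named are, per donor, the 5 largest at baseline and disease, the 5 with the highest ratios, the 5 lowest reduced, the 5 largest lost and persisting, the 5 highest that were below 1 CPM at baseline, clones abundant in both baselines, and clones called by limma or, with none called, up to 3 per direction. Members, classes and naming rules were chosen with earlier results of these data known. Barcode sequences were not used here. No batch labels were found.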

Additional observations from a re-analysis of the deposited data

How the results depend on the processing

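With 2 donors, the exact tests could not pass a threshold, and the class shares moved with their definitions. Values are means over donors. The expanded share (5.53%) was 8.35% at 2-fold, 2.62% at 10-fold, 3.69% and 3.02% with a baseline minimum of 300 and 1000 CPM, and 4.83% with spleen only. The persisting share (14.7%) was 7.45% and 24.4% at 2-fold and 10-fold and 10.6% at the 1000 CPM minimum. The reduced share (34.4%) was 38.8% and 27.6% at these folds, 48.3% and 72.1% at these minimums, 24.2% with spleen only, 46.6% with loss as listed at 0 and 16.2% with loss under 10 CPM. The lost share (45.4%) was 33.1% and 63.5% under these last settings, 34.97% and 14.3% at the minimums and 56.7% with spleen only.

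Settings chosen after seeing the data gave, for clones whose baseline libraries lay within 2-fold, 5.91% expanded and 32.0% reduced, for 4-fold in each tissue, 3.95% expanded, 18.4% persisting and 32.2% reduced, and without the donor 1 PTPRCA spleen 5.36% expanded. The other class shares moved by less than the SD between donors under these 3 settings. Leaving out a donor gave 5.41% to 5.65% expanded and 42.6% to 48.2% lost.

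Disease reads from clones at 100 CPM or more at baseline (84.6%) were 77.8% without GFP_Barcode_52804 and 51.4% with a limit of 1000 CPM. Those from the level below (15.2%) were 21.9% and 47.5%, and those from the lowest level (0.214%) were 1.09% with a limit of 10 CPM. The log2 ratio of clone numbers (-1.58) turned to 0.18 with a limit of 1000 CPM. The effective number (-1.90) was -2.97 without GFP_Barcode_52804, -1.27 over clones of 100 CPM or more and -2.36 to -1.43 without a donor. The 3 library shares kept their direction under all alternatives run.

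limma called 4 clones with tissues separate and a donor block, 1 with a donor block and baseline and PTPRCA values only, and 726 to 1139 without a donor. The donor block as the one change called 0, as did pseudocounts of 1 and 100 CPM, no filter, a filter of 1000 CPM and either tissue alone. Clones at an unadjusted p below 0.05 numbered 42 of 10819 with no filter, 0 of 381 with the filter of 1000 CPM and 0 to 33 of 2864 in the other fits of this list. Separate tissues without the block also gave 0 calls with 823 such clones of 2864, and no filter with the block 0 calls with 1021 of 10819. The cause of these differences was not tested.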

Other observations

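Values in NSG recipients of the same donors are given here for some of the named clones, against which no test was made. GFP_Barcode_44375 of donor 2, at 797 and 589 CPM in PTPRCA marrow and spleen, stood at 0.123 CPM in NSG marrow and 0 in NSG spleen, and GFP_Barcode_13746 at 247 and 206 CPM against 0.123 and 0. The lost clone mCHERRY_2_Barcode_900153 of donor 1 had 1210 CPM at baseline and 0 and 0.138 CPM in PTPRCA marrow and spleen. In NSG it stood at 404 and 167 CPM. The other clones named as the largest lost of either donor stood at 0 to 12.7 CPM in each NSG tissue. The large donor 2 clones mCHERRY_2_Barcode_311488 and mCHERRY_2_Barcode_96127 stood at 59833 and 44048 CPM and at 24572 and 25322 CPM in NSG marrow and spleen.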
